A study of Homo sapiens with 12 samples.

Results

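K562 cells given nilotinib alone were compared directly with K562 cells given hemin alone, gene by gene, in 6 of the 12 libraries of an RNA-seq experiment. K562 is a human leukemia line driven by BCR-ABL1, a fusion kinase, nilotinib is a small-molecule inhibitor of this kinase, and hemin is an iron porphyrin long used to make these cells produce hemoglobin. The 3 libraries named mock nilotinib came from cells exposed to 0.1 μM nilotinib and no hemin, and the 3 named hemin DMSO from cells exposed to the solvent DMSO and then to 50 μM hemin for 24 h. Another 3 libraries, mock DMSO, had solvent only and served as the level without either agent. The last 3, hemin nilotinib, received both and entered the fit only to share the estimate of spread. The libraries of a group are labelled as biological replicates of 1 cell line, so their spread says nothing about other lines or primary cells. The sources differ on whether mock nilotinib cells were collected after the same total culture time as the hemin cells or 24 h earlier. The question also holds for mock DMSO, whose library names carry the same time label as mock nilotinib. In the second case, time in culture and treatment cannot be told apart. This applies to hemin DMSO against mock nilotinib and against mock DMSO.

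Erythroid cells turn on globins, the enzymes of heme synthesis, iron uptake and a red cell membrane under transcription factors that include GATA1, KLF1 and TAL1. Free heme is also a stress signal. It releases the repressor BACH1 from antioxidant genes that NRF2 activates, and protein-damaging stress activates HSF1, which binds heat shock elements in front of chaperone genes. BCR-ABL1 signals through the ERK and STAT5 pathways, whose target genes report on its activity.

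Of 58735 genes listed, 20821 passed the expression filter, and 13704 of them differed between the treatments by the quasi-likelihood test of edgeR (p-values adjusted by Benjamini-Hochberg over all genes tested, adjusted p under 0.05, called below). That is 65.8% of the genes tested, 6757 of them higher in mock nilotinib (32.5%) and 6947 higher in hemin DMSO (33.4%). A difference of at least 4-fold accompanied the call for 4551 genes (21.9%), 2103 higher in mock nilotinib (10.1%) and 2448 higher in hemin DMSO (11.8%). The 3 and 3 libraries did not overlap for 14622 genes (70.2%), called or not. Against mock DMSO, nilotinib alone gave 8851 calls (42.5% of genes, 20.7% higher and 21.8% lower) and hemin alone 11156 (53.6%, 25.7% higher and 27.8% lower), and these 2 contrasts share their control libraries. The counts of each gene list below are to be read against these shares. Signed differences are log2 of mock nilotinib over hemin DMSO, or of a treatment over mock DMSO where that group is named. The median of the direct differences over all genes was -0.015. Without composition scaling this median was 0.198 and 7918 genes were higher in mock nilotinib against 5735. Levels are CPM, counts scaled for library size and composition, given for replicates 1, 2 and 3 in order.

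The 6 libraries held 33457078 to 41860655 counted reads, and the treatments were the main axis of variation, with 65.04% of the variance in the first principal component over the 9 libraries of the 3 groups. Hemin DMSO libraries were more skewed: their 10 most abundant genes took 12.04 to 13.36% of all counts, against 8.199 to 8.873% in mock nilotinib. Mitochondrially encoded RNA took 1.454 to 2.877% in hemin DMSO and 5.237 to 7.596% in mock nilotinib. In bulk RNA, fewer cells of a type and less RNA per cell cannot be told apart.

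**Figure D1:**
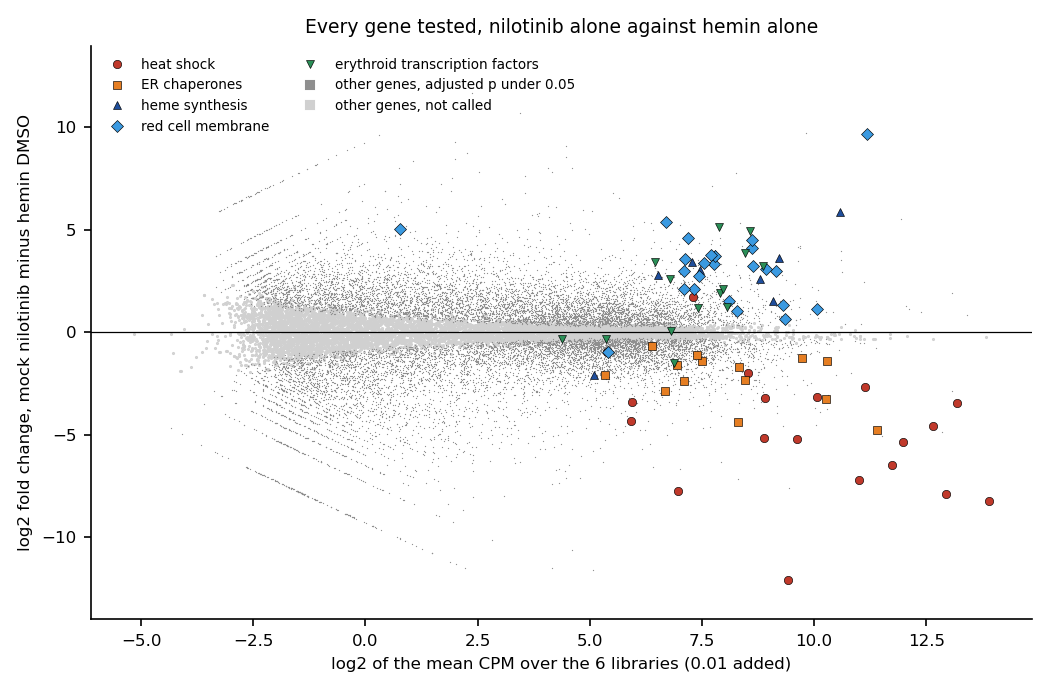
Each gene tested is a point, with its log2 mean CPM over the 6 libraries on the x axis and its log2 difference, mock nilotinib minus hemin DMSO, on the y axis. Dark grey marks genes with an adjusted p under 0.05 and coloured symbols mark 5 lists; 18 of the 19 heat shock genes lie below zero and 23 of the 24 red cell membrane genes above it.

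Some promoters of the stress and erythroid genes hold motifs of their known regulators, and a few are shown first so that the values below can be read beside them. Promoter sequences came from RefSeq on GRCh38.p14, and the 250 bases before each start were searched on both strands. The heat shock element was searched as a GAA, a TTC and a GAA unit set 2 bases apart, which 0.441% of all 35116 promoters held. Among the heat shock list it stood in 5 of 25 promoters. The stretches around it are given below with the matched letters in capitals and the strand of the gene. The heat shock list had the widest median gap between the treatments. The genes printed were those with a match, whatever their gap. HSPA6 had the widest gap of the list, and HSP90AB1, HSPA8 and HSPD1 had gaps below its median.
HSPA6, chr1:161524458-161524486, + strand: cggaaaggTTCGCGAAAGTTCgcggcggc
HSP90AA1, chr14:102087112-102087140, - strand: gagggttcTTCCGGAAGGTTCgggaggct
HSP90AB1, distal, chr6:44247770-44247798, + strand: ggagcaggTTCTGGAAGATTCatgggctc
HSP90AB1, proximal, chr6:44247823-44247851, + strand: tgagattgTTCTGGAAGCTTCtggattct
HSPA8, proximal, chr11:123062171-123062199, - strand: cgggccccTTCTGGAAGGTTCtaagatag
HSPA8, distal, chr11:123062346-123062374, - strand: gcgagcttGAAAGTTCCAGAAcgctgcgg
HSPD1, chr2:197500060-197500088, - strand: attttctgGAAAGTTCTGGAAccgagcga
The HSPA6 element ended 62 bases before the annotated start, and the HSP90AA1 element 76 bases before it.

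Whole 250-base windows without any annotated exon are given for 4 genes, 1 from each of 4 programmes, with only the named motif in capitals. The HSPA6 and KLF1 windows also hold a match to the antioxidant response element, which is not in capitals. The antioxidant response element was searched as TGACNNNGC (10.9% of all promoters, 25.0% of the 20 promoters of the heme and NRF2 list) and the GATA motif as AGATAA or TGATAA (14.6% of all promoters, 38.5% of the 26 promoters of the red cell membrane list and 17.9% of the 28 of the erythroid transcription factors). For the antioxidant element such a share was not particular to its list. It stood in 28.6% of 7 promoters of lymphoid markers and 22.2% of 9 of reference genes. The GATA motif stood in 7.14% of the 14 promoters of iron handling. A CACCC box of KLF1, searched as CCACACCC, stood in 2.97% of all promoters. Its share was 3.85% in the red cell membrane list and 0.0% in the erythroid transcription factors. A match is a description of the letters only.
HSPA6 (inducible HSP70, heat shock element), chr1:161524290-161524539, + strand: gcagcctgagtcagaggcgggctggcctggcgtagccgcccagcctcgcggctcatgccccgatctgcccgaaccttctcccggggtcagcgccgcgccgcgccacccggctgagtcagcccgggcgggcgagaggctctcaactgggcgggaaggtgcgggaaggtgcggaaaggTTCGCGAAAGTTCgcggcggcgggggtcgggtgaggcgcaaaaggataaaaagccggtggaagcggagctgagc
TXNRD1 (thioredoxin reductase, antioxidant response element), chr12:104215529-104215778, + strand: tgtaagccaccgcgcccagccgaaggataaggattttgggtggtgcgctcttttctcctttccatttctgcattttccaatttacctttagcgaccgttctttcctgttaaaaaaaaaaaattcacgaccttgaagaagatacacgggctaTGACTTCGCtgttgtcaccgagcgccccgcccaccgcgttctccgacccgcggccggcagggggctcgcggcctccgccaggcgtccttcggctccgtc
KLF1 (erythroid transcription factor, GATA motif), chr19:12887202-12887451, - strand: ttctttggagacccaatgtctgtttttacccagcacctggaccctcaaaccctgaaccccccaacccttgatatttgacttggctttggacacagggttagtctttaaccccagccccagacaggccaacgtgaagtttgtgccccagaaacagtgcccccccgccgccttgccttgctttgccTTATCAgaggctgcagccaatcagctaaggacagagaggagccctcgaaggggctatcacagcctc
SPTB (β-spectrin, GATA motif), chr14:64879908-64880157, - strand: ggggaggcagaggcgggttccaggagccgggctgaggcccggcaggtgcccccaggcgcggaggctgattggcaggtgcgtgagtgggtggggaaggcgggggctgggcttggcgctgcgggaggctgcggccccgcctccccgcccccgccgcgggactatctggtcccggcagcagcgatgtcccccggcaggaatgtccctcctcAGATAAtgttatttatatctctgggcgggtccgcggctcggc
The first pair of genes was higher in hemin DMSO and the second pair higher in mock nilotinib, with values below.

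Of the lists, heat shock separated the treatments most widely by its median. Of the 19 genes of this list, 18 were lower in mock nilotinib and 1 was higher, with a median log2 difference of -4.59. Together they took 9.102 to 9.906% of all counted reads in hemin DMSO, 0.3526 to 0.4916% in mock nilotinib and 0.546 to 0.5603% in mock DMSO. HSPA1A (chr6:31815464-31817946), the stress-inducible HSP70 chaperone, was at 30100, 32560 and 28820 CPM in hemin DMSO. In mock nilotinib it was at 147, 83.4 and 76.2 CPM and in mock DMSO at 102, 96.9 and 101 CPM. Mock nilotinib was not called against mock DMSO (log2 difference 0.035, SE 0.59, edgeR adjusted p = 0.969), while hemin DMSO held 298 times as much as mock nilotinib (log2 difference -8.22, SE 0.81, edgeR adjusted p = 2.14e-07). Its neighbour HSPA1B (chr6:31827735-31830255) gave a log2 difference of -7.91 (edgeR adjusted p = 3.71e-07). These 2 genes are near copies, with 63.2 and 70.0% of their 150-base words found in another gene, so the split of reads between them is uncertain.

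HSPA6 (chr1:161524540-161526910), a strictly inducible HSP70 that most resting cells do not make, had the lowest log2 difference of all genes called. Its level was 759, 1902 and 1410 CPM in hemin DMSO, 0.304, 0.233 and 0.375 CPM in mock nilotinib and 12.5, 6.54 and 4.42 CPM in mock DMSO. The libraries of the treatments were far apart (log2 difference -12.11, SE 1.11, edgeR adjusted p = 9.27e-08), and mock nilotinib was also below mock DMSO (log2 difference -4.67, SE 0.99, edgeR adjusted p = 0.00117). Among the 19 genes of the list, HSPA6 was the one whose level under nilotinib lay furthest from mock DMSO.

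The other chaperones followed by role. HSPH1, the nucleotide exchange factor of HSP70, was at 3192, 5258 and 3757 CPM in hemin DMSO and 42.7, 22.5 and 17.9 CPM in mock nilotinib (log2 difference -7.20, SE 0.53, edgeR adjusted p = 7.94e-09). DNAJB1, an HSP40 co-chaperone that hands substrates to HSP70, was at 6085, 7395 and 6583 against 86.8, 74.3 and 62.4 CPM (log2 difference -6.49, SE 0.57, edgeR adjusted p = 6.30e-08). The small heat shock proteins HSPB1 and CRYAB, which hold unfolded proteins, differed by -5.38 and -7.74. BAG3, which links HSP70 to autophagy, differed by -5.22 and DNAJB4 by -5.17. In mock nilotinib none of these 6 was called against mock DMSO, whereas each was above it in hemin DMSO.

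The HSP90 genes, HSPA8 and the mitochondrial chaperonin pair showed smaller gaps on higher starting levels. HSP90AA1 was at 13590, 12240 and 11090 CPM in hemin DMSO and 652, 455 and 422 CPM in mock nilotinib (log2 difference -4.59, SE 0.29, edgeR adjusted p = 1.44e-09). HSP90AB1 was at 16840, 20170 and 14020 against 1701, 1526 and 1424 CPM (log2 difference -3.46, SE 0.21, edgeR adjusted p = 9.31e-10), and here mock nilotinib was also below mock DMSO (log2 difference -0.68, SE 0.19, edgeR adjusted p = 0.00863). HSPA8, the housekeeping HSP70, differed by -2.69. The mitochondrial chaperonin pair HSPD1 and HSPE1 differed by -3.15 and -3.39, and in mock nilotinib both were below mock DMSO (log2 differences -1.15 and -0.69, edgeR adjusted p = 2.02e-05 and 0.00234).

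The regulator HSF1 was the only member of the list higher in mock nilotinib. Its mRNA was at 203, 255 and 268 CPM there, 61.3, 85.3 and 73.7 CPM in hemin DMSO and 119.8, 131 and 138 CPM in mock DMSO, so the 2 treatments lay on opposite sides of the solvent level. The treatments differed (log2 difference 1.72, SE 0.14, edgeR adjusted p = 3.73e-08). HSF2, a related factor, was lower in mock nilotinib (log2 difference -0.94, SE 0.14, edgeR adjusted p = 1.40e-05). ZFAND2A (chr7:1152071-1160759), a stress-induced partner of the proteasome, followed the chaperones with 1718, 1155 and 1282 CPM in hemin DMSO and 7.20, 7.64 and 6.60 CPM in mock nilotinib (log2 difference -7.60, SE 0.56, edgeR adjusted p = 9.05e-09).

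**Figure D2:**
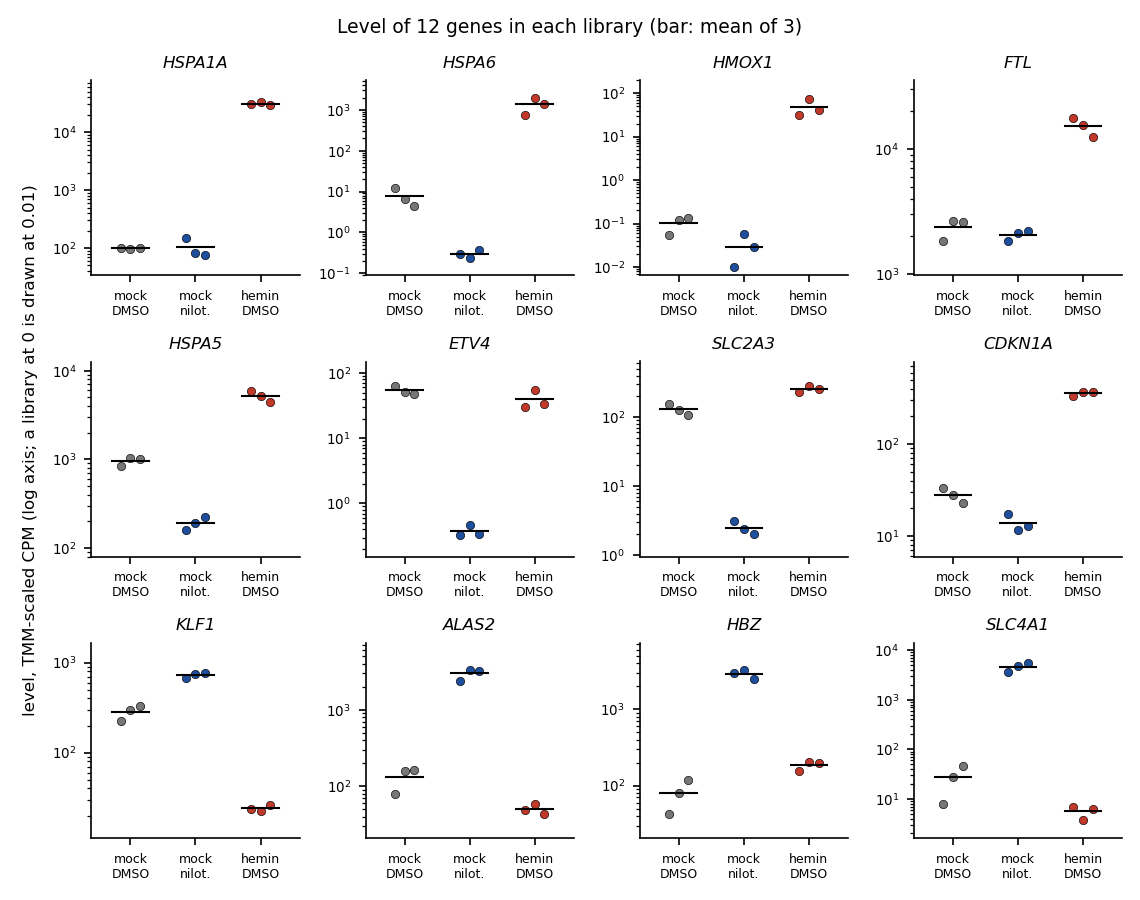
The level of 12 genes is plotted per library in CPM on log axes, with mock DMSO in grey, mock nilotinib in blue, hemin DMSO in red and a bar at each mean of 3 libraries. For HSPA1A, FTL and CDKN1A all red points lie above all blue and grey ones, for ETV4 and SLC2A3 the blue points lie far below both others, and for KLF1, ALAS2 and SLC4A1 the blue points lie above and the red points below mock DMSO; a library at 0 is drawn at 0.01.

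The genes that answer to heme and NRF2 were split. Of 18 tested, 10 were lower in mock nilotinib, 5 were higher and 3 were not called, with a median of -1.05. HMOX1 (chr22:35380361-35394214), heme oxygenase, which opens the heme ring and frees its iron, had 1035, 2254 and 1624 counts in hemin DMSO and 0, 2 and 1 in mock nilotinib. In mock DMSO it had 3, 5 and 7 counts. The ratio of hemin DMSO to mock nilotinib, corrected for scaled library size, was 1716 with a 95% counting interval of 587 to 8324, wide because mock nilotinib held 3 counts in all.

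Known NRF2 targets were among the 10 members higher in hemin DMSO. NQO1, a quinone reductase, was at 612, 417 and 404 CPM in hemin DMSO, 6.16, 6.68 and 4.79 in mock nilotinib and 31.1, 34.1 and 32.0 in mock DMSO. It was above the solvent libraries under hemin (log2 difference 3.88, SE 0.24, edgeR adjusted p = 9.11e-09) and below the same libraries under nilotinib (log2 difference -2.46, SE 0.23, edgeR adjusted p = 4.89e-07). OSGIN1, a growth inhibitor made under oxidative stress, was at 701, 577 and 604 against 5.17, 3.06 and 4.70 CPM (log2 difference -7.18, SE 0.42, edgeR adjusted p = 7.17e-10). TXNRD1 (chr12:104215779-104350305), whose promoter window stands above, was at 2265, 1793 and 1709 against 144, 153 and 149 CPM (log2 difference -3.69, SE 0.24, edgeR adjusted p = 2.68e-09). ME1, which makes NADPH, differed by -4.27, the cystine importer SLC7A11 by -3.19 and the glutathione synthesis subunit GCLM by -2.602. NRF2 itself (NFE2L2) was lower in mock nilotinib (log2 difference -1.47, SE 0.15, edgeR adjusted p = 3.07e-07).

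Of the 5 members higher in mock nilotinib, BACH1, the heme-sensing repressor of HMOX1, was at 157, 183 and 179 CPM in mock nilotinib and 95.0, 65.8 and 71.0 in hemin DMSO (log2 difference 1.16, SE 0.16, edgeR adjusted p = 9.06e-06). KEAP1, which marks NRF2 for degradation, was higher (log2 difference 0.81, SE 0.12, edgeR adjusted p = 2.26e-05). Biliverdin reductase BLVRB, abundant in red cells, was at 1374, 1592 and 1760 against 552, 832 and 716 CPM (log2 difference 1.17, SE 0.17, edgeR adjusted p = 1.48e-05). The heme exporter FLVCR1 was higher (log2 difference 1.25, SE 0.13, edgeR adjusted p = 4.34e-07). SLC48A1, a heme transporter of the lysosome, was the fifth (log2 difference 0.77, SE 0.17, edgeR adjusted p = 6.55e-04).

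Both ferritin chains were higher in hemin DMSO. Ferritin light chain FTL, which stores iron, was at 17620, 15390 and 12490 CPM in hemin DMSO, 1820, 2139 and 2205 in mock nilotinib and 1843, 2673 and 2578 in mock DMSO (log2 difference -2.88, SE 0.24, edgeR adjusted p = 3.08e-08). Ferritin heavy chain FTH1 differed less (log2 difference -0.74, SE 0.18, edgeR adjusted p = 0.0018), and it was above mock DMSO under each treatment (log2 0.57 under nilotinib and 1.32 under hemin, edgeR adjusted p = 0.0178 and 2.09e-05, against the same solvent libraries). Of FTH1, 62.4% of the exon length overlaps a gene on the other strand, and strand use in counting is not given in the sources used here. Of 11 listed genes (metallothioneins, a zinc exporter and their regulator) 5 passed the filter, 3 were lower in mock nilotinib and 2 were not called (median -2.37, which turned to 0.11 with at least 10 counts in every library and to 0.14 with the 6 libraries alone). Their summed level overlapped, at 142.7 to 219.1 CPM in hemin DMSO and 125.3 to 147.9 CPM in mock nilotinib. MTF1, the zinc-sensing factor that drives metallothioneins, was at 94.7, 79.3 and 84.2 against 17.0, 15.8 and 17.2 CPM (log2 difference -2.37, SE 0.15, edgeR adjusted p = 1.54e-09). MT1X had only 2, 1 and 2 counts in mock nilotinib and 4, 44 and 58 in hemin DMSO.

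Genes for protein folding in the endoplasmic reticulum were lower in mock nilotinib without exception among the 14 of the list (median -1.89). Against mock DMSO all 14 were lower under nilotinib, and under hemin 8 were higher, 2 lower and 4 not called. HSPA5 (chr9:125234853-125241330), the HSP70 of this compartment, was at 5891, 5248 and 4438 CPM in hemin DMSO, 852, 1043 and 1021 in mock DMSO and 159, 191 and 226 in mock nilotinib. The treatments differed widely (log2 difference -4.76, SE 0.30, edgeR adjusted p = 1.33e-09), and against mock DMSO it was higher under hemin (2.42) and lower under nilotinib (-2.34). HSP90B1, its HSP90 partner, was at 2122, 2459 and 2112 against 196, 228 and 287 CPM (log2 difference -3.24, SE 0.20, edgeR adjusted p = 1.01e-09). HERPUD1, which serves degradation of misfolded proteins, differed by -4.36 and XBP1, a transcription factor of the unfolded protein response, by -2.36. For HYOU1 and SDF2L1 the gap came from the nilotinib side: HYOU1 was at 531, 626 and 602 CPM in hemin DMSO and 429, 542 and 581 in mock DMSO, but at 108, 113 and 125 in mock nilotinib, and SDF2L1 was at 187, 174 and 190.5, 231, 232 and 246 and 60.2, 61.0 and 60.5 CPM in the same order.

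The ATF4 response, in which ATF4 raises amino acid synthesis and stress genes when translation is checked, had all 23 members lower in mock nilotinib (median -2.58). ATF4 mRNA itself had the smallest gap (log2 difference -0.84, SE 0.28, edgeR adjusted p = 0.0134), and that call was lost without composition scaling (-0.64, edgeR adjusted p = 0.0597) and when mock nilotinib replicate 1 was left out (-0.67, edgeR adjusted p = 0.0665). NUPR1, a stress-induced chromatin protein, was at 54.1, 36.2 and 38.7 CPM in hemin DMSO, 15.5, 22.7 and 18.3 in mock DMSO and 0.380, 0.350 and 0.461 in mock nilotinib (log2 difference -6.75, SE 0.53, edgeR adjusted p = 1.70e-08). CHAC1, which degrades glutathione, was at 169, 102 and 148 against 4.13, 1.78 and 2.16 CPM (log2 difference -5.69, SE 0.78, edgeR adjusted p = 8.82e-06). The transcription factor ATF3 was at 390, 387 and 398 against 17.5, 15.6 and 14.3 CPM (log2 difference -4.63, SE 0.41, edgeR adjusted p = 5.93e-08), and DDIT3 (CHOP), which promotes death under lasting stress, at 164, 161 and 167 against 28.3, 23.0 and 19.4 CPM (log2 difference -2.80, SE 0.36, edgeR adjusted p = 4.76e-06).

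The serine synthesis enzymes PHGDH and PSAT1 were at 544 to 661 and 278 to 358 CPM in hemin DMSO, near mock DMSO at 561 to 622 and 284 to 318 CPM. In mock nilotinib they were at 87.8, 71.6 and 62.4 CPM and 33.05, 23.7 and 23.8 CPM, lower than in hemin DMSO (log2 difference -2.998, SE 0.52, edgeR adjusted p = 8.69e-05; -3.58, SE 0.46, edgeR adjusted p = 4.19e-06). TRIB3, an inhibitor of ATF4, and the secreted STC2 differed by -3.42 and -4.59, and the amino acid transporter SLC7A5 by -2.76. PPP1R15A, which restores translation, was at 268, 292 and 302 CPM in mock nilotinib, 208, 214 and 214 in mock DMSO and 1276, 1596 and 1475 in hemin DMSO (log2 difference -2.34, SE 0.20, edgeR adjusted p = 3.73e-08). The ATF4 composite element, searched as TGATGNAAN, stood in 12.5% of the 32 promoters of this list and in 3.13% of all promoters. Shares were similar in the red cell membrane list (11.5% of 26 promoters) and the BCL2 family (11.8% of 17). In ASNS the element read TGATGAAAC, 68 to 60 bases before the start.

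Proteasome subunits differed by less per gene in one direction. Of 30 genes 28 were lower in mock nilotinib, none was higher and 2 were not called (median -1.04). The lid deubiquitinase PSMD14 was at 369.7, 362 and 318 CPM in hemin DMSO, 81.7, 72.8 and 63.4 in mock nilotinib and 97.9, 103 and 108 in mock DMSO (log2 difference -2.27, SE 0.13, edgeR adjusted p = 6.73e-10). The assembly factor POMP was at 141, 166 and 123 against 42.7, 42.7 and 45.9 CPM (log2 difference -1.71, SE 0.13, edgeR adjusted p = 1.12e-08). PSMA2, 1 of the 2 not called, was low in all libraries, at 3.62, 2.97 and 3.15 against 4.18, 4.29 and 3.29 CPM (log2 difference 0.27, SE 0.23, edgeR adjusted p = 0.298).

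The autophagy and lysosome list was mixed, with 12 of 23 lower in mock nilotinib, 6 higher and 5 not called (median -0.35). The cargo receptor SQSTM1, also an NRF2 target, was at 2169, 1451 and 1333 CPM in hemin DMSO and 253, 293 and 332 in mock nilotinib (log2 difference -2.50, SE 0.30, edgeR adjusted p = 2.20e-06). MAP1LC3B, which coats the autophagosome membrane, was at 394, 399 and 375 against 94.5, 111 and 117 CPM (log2 difference -1.86, SE 0.14, edgeR adjusted p = 1.46e-08). In the other direction, ATG4A, the protease that processes such proteins, was at 91.1, 119.5 and 119 CPM in mock nilotinib and 29.2, 27.3 and 28.8 in hemin DMSO (log2 difference 1.95, SE 0.19, edgeR adjusted p = 2.36e-07), and the lysosomal protease CTSB was higher (log2 difference 1.22, SE 0.15, edgeR adjusted p = 2.19e-06).

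Targets of BCR-ABL1 signalling were also lower in mock nilotinib. Of 21 ERK target genes tested, 16 were lower in mock nilotinib, 1 was higher and 4 were not called (median -3.68). ETV4 (chr17:43527844-43579620), a transcription factor of the PEA3 group, was at 0.330, 0.467 and 0.346 CPM in mock nilotinib, 30.5, 54.1 and 33.02 in hemin DMSO and 64.0, 51.2 and 48.1 in mock DMSO. The treatments differed (log2 difference -6.68, SE 0.28, edgeR adjusted p = 3.45e-11), and against mock DMSO the level was far lower under nilotinib (-7.15) and slightly lower under hemin (-0.47, edgeR adjusted p = 0.0483). SPRY4, a feedback inhibitor of this pathway, was at 0.330, 0.292 and 0.317 CPM against 54.0, 33.2 and 45.8 (log2 difference -7.13, SE 0.28, edgeR adjusted p = 2.01e-11). The related ETV5 and ETV1 differed by -5.69 and -5.15, and the immediate-early factor EGR1 by -3.71.

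Other members of this list stood out in hemin DMSO. FOS was at 38.5, 77.0 and 49.4 CPM in hemin DMSO, 0.685, 0.233 and 0.231 in mock nilotinib and 1.13, 1.22 and 1.17 in mock DMSO (log2 difference -7.12, SE 0.53, edgeR adjusted p = 9.52e-09), and JUN at 590.3, 916 and 754, 59.5, 61.9 and 54.4 and 75.3, 66.1 and 59.4 CPM in the same order (log2 difference -3.68, SE 0.32, edgeR adjusted p = 4.64e-08). IER3, an early-response survival gene, was at 100.4, 96.5 and 111 against 6.59, 7.29 and 7.58 CPM, with mock DMSO between them at 20.4, 22.7 and 17.8 CPM. JUNB alone was higher in mock nilotinib (log2 difference 0.49, SE 0.13, edgeR adjusted p = 0.00354), and it was above mock DMSO under each agent (1.47 and 0.97).

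Of 12 STAT5 targets 10 were lower in mock nilotinib and 2 were higher (median -1.22). BCL6, a transcriptional repressor, was at 2.97, 3.50 and 3.83 CPM in mock nilotinib, 95.0, 76.4 and 101 in hemin DMSO and 47.3, 66.7 and 93.5 in mock DMSO (log2 difference -4.72, SE 0.47, edgeR adjusted p = 2.35e-07). The cytokine-signalling inhibitor SOCS3 was at 2.26, 3.94 and 3.37 against 57.1, 59.0 and 62.9 CPM (log2 difference -4.23, SE 0.23, edgeR adjusted p = 4.31e-10). The survival kinase PIM3 was at 51.5, 48.0 and 51.7 against 856, 274 and 327 CPM (log2 difference -3.27, SE 0.40, edgeR adjusted p = 2.78e-06), with hemin DMSO replicate 1 above the others, and PIM1 differed (log2 difference -1.09, SE 0.23, edgeR adjusted p = 6.76e-04).

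Several STAT5 targets were below mock DMSO under each agent, and nilotinib was not always the lower. CISH, a classic STAT5 target, was at 93.3, 97.1 and 91.7 CPM in mock DMSO, 22.6, 20.6 and 20.3 in hemin DMSO and 13.5, 12.2 and 10.3 in mock nilotinib, and the treatments were close (log2 difference -0.82, SE 0.16, edgeR adjusted p = 3.30e-04). BCL2L1 (BCL-XL), which protects late erythroid cells, was at 179.9, 167 and 157 CPM in mock DMSO, 53.4, 66.4 and 65.1 in mock nilotinib and 28.04, 41.2 and 34.9 in hemin DMSO, and so was higher in mock nilotinib (log2 difference 0.83, SE 0.14, edgeR adjusted p = 9.81e-05); 43.0% of its exon length overlaps a gene on the other strand. The cytokine gene OSM was low but higher in mock nilotinib, at 1.55, 2.71 and 2.02 against 0.521, 0.574 and 0.786 CPM (log2 difference 1.72, SE 0.34, edgeR adjusted p = 2.97e-04).

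Transcripts of the drug target and its partners differed by less. ABL1 was at 442, 436 and 433 CPM in mock nilotinib and 316, 254 and 291 in hemin DMSO (log2 difference 0.61, SE 0.14, edgeR adjusted p = 0.00125) and BCR at 280.1, 296 and 306 against 168, 142 and 153 CPM (log2 difference 0.93, SE 0.12, edgeR adjusted p = 4.33e-06). Neither passed the test against mock DMSO under nilotinib (0.048 and 0.29, edgeR adjusted p = 0.808 and 0.06), and counts per gene cannot separate the fusion from the normal alleles. The adaptor CRKL, which BCR-ABL1 phosphorylates, was lower in mock nilotinib (log2 difference -0.64, SE 0.13, edgeR adjusted p = 3.26e-04). DDR2, a collagen receptor kinase that nilotinib also inhibits, was at 74.9, 77.0 and 79.7 CPM in hemin DMSO, 1.37, 0.671 and 0.807 in mock nilotinib and 3.78, 5.72 and 4.88 in mock DMSO (log2 difference -6.33, SE 0.32, edgeR adjusted p = 1.46e-10).

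Glycolysis was lower in mock nilotinib for 15 of 21 genes, higher for 5 and not called for 1 (median -1.66). Hexokinase HK2 was at 1.24, 0.758 and 1.53 CPM in mock nilotinib, 34.9, 38.2 and 40.2 in hemin DMSO and 64.2, 62.5 and 55.6 in mock DMSO (log2 difference -5.00, SE 0.25, edgeR adjusted p = 1.44e-10). The glucose transporter SLC2A3 (chr12:7919230-7936275) was at 3.09, 2.39 and 2.02 against 229, 278 and 258 CPM (log2 difference -6.66, SE 0.25, edgeR adjusted p = 1.70e-11). PKM, the pyruvate kinase of dividing cells, was at 31.1, 28.8 and 32.5 against 571, 708 and 478 CPM (log2 difference -4.25, SE 0.20, edgeR adjusted p = 6.78e-11), and lactate dehydrogenase LDHA and enolase ENO1 differed by -2.62 and -2.08.

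For PKM, HK2 and SLC2A3, a related form found in red cells went the other way. PKLR, the pyruvate kinase of red cells and liver, was at 833, 1082 and 1217 CPM in mock nilotinib and 73.8, 118 and 95.0 in hemin DMSO (log2 difference 3.45, SE 0.27, edgeR adjusted p = 1.81e-08). SLC2A1, the glucose transporter of the red cell membrane, was at 1060, 1196 and 1153 against 176, 198 and 212 CPM (log2 difference 2.54, SE 0.17, edgeR adjusted p = 3.20e-09), and HK1, the hexokinase of red cells, was higher (log2 difference 0.63, SE 0.16, edgeR adjusted p = 0.00189). PFKFB4, which tunes glycolytic flux, was higher (log2 difference 1.98, SE 0.14, edgeR adjusted p = 5.24e-09). Within 3 families of enzymes or transporters the members thus lay on opposite sides, each past the test, with PKM, HK2 and SLC2A3 lower in mock nilotinib and PKLR, HK1 and SLC2A1 higher.

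Erythroid genes were higher in mock nilotinib. All 6 genes tested of the α-like globins and their chaperone AHSP were higher in mock nilotinib than in hemin DMSO, with a median log2 difference of 4.09, and 4 of 6 β-like globin genes were, with a median of 0.92. HBZ (chr16:152687-154503), the embryonic ζ-globin of the α cluster, was at 2972, 3273 and 2493 CPM in mock nilotinib, 154, 202 and 199 in hemin DMSO and 42.4, 78.9 and 118 in mock DMSO (log2 difference 3.97, SE 0.37, edgeR adjusted p = 1.12e-07). AHSP, which keeps free α-globin soluble, was at 153, 142 and 135 CPM in mock nilotinib but at 1.87, 4.08 and 4.46 in hemin DMSO and 1.53, 3.12 and 5.44 in mock DMSO (log2 difference 5.36, SE 0.39, edgeR adjusted p = 7.66e-09). HBM and HBQ1, minor members of the cluster, differed by 4.79 and 1.89. The adult genes HBA1 and HBA2, near copies with 78.5 and 78.3% shared words, differed by 4.20 and 3.52.

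In the β cluster the fetal gene HBG1 (chr11:5248079-5249859) was at 1045, 2273 and 1598 CPM in mock nilotinib and 385, 374 and 288 in hemin DMSO (log2 difference 2.23, SE 0.31, edgeR adjusted p = 8.52e-06). HBG2, HBD and the pseudogene HBBP1 were higher by 1.09, 0.81 and 1.03, with HBG2 sharing 57.3% of its exon length with other genes. The embryonic HBE1, of which 90.0% overlaps other genes, was at 1.47, 1.95 and 2.31 against 1.53, 1.66 and 1.65 CPM and was not called (log2 difference 0.24, SE 0.37, edgeR adjusted p = 0.581). Adult β-globin HBB was at 0.330, 0.350 and 0.865 CPM in mock nilotinib and 0.214, 1.63 and 1.52 in hemin DMSO (log2 difference -1.13, SE 0.66, edgeR adjusted p = 0.145), the globin gene with a negative difference. It passed the test when hemin DMSO replicate 1 was left out (-1.61, edgeR adjusted p = 0.0268).

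Heme synthesis, from glycine to heme in 8 steps, had 8 of 9 genes higher in mock nilotinib and 1 lower (median 3.06). The first step separates 2 genes: ALAS2, the erythroid enzyme, and ALAS1, the enzyme of other tissues that heme represses in liver. ALAS2 (chrX:55009055-55031064) was at 2420, 3352 and 3223 CPM in mock nilotinib, 49.9, 58.6 and 43.5 in hemin DMSO and 80.3, 159.6 and 163 in mock DMSO (log2 difference 5.89, SE 0.29, edgeR adjusted p = 1.30e-10). ALAS1 was the lower one, at 14.7, 13.2 and 10.9 CPM in mock nilotinib against 52.1, 63.5 and 51.3 in hemin DMSO (log2 difference -2.10, SE 0.16, edgeR adjusted p = 9.93e-09), and it was above mock DMSO under hemin (0.96). The porphyrin steps followed, with UROS (log2 difference 3.43, SE 0.20, edgeR adjusted p = 6.55e-10), CPOX (log2 difference 3.06, SE 0.16, edgeR adjusted p = 2.80e-10) and PPOX (log2 difference 3.83, SE 0.17, edgeR adjusted p = 6.01e-11) higher. ALAD and UROD differed by 2.79 and 1.54, and FECH, which inserts the iron, by 2.6. Under hemin 6 of the 9 genes were below mock DMSO, and under nilotinib 8 were above it.

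Of the 12 genes of iron handling, 8 were higher in mock nilotinib, 2 (FTL and FTH1, the ferritin chains) were lower and 2 were not called (median 1.47). SLC25A37 (mitoferrin, chr8:23528805-23575463), which carries iron into erythroid mitochondria, was at 5635, 7714 and 9537 CPM in mock nilotinib, 135, 184 and 182 in hemin DMSO and 686, 946 and 1037 in mock DMSO (log2 difference 5.51, SE 0.27, edgeR adjusted p = 1.09e-10). The transferrin receptor TFRC was at 3006, 2809 and 2503 against 279, 422 and 364 CPM (log2 difference 2.96, SE 0.53, edgeR adjusted p = 1.25e-04) and its relative TFR2 at 646, 672 and 632 against 128, 218 and 140.4 CPM (log2 difference 2.004, SE 0.17, edgeR adjusted p = 5.29e-08). STEAP3, which reduces iron in endosomes, was higher by 3.54, the iron channel SLC11A2 by 1.39, the ferritin-autophagy receptor NCOA4 by 1.55 and the exporter ferroportin (SLC40A1) by 2.68.

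Of 14 erythroid transcription factors tested, 10 were higher in mock nilotinib, 1 was lower and 3 were not called (median 2.02). KLF1 (chr19:12884422-12887199), which drives adult globin and membrane genes and whose promoter window stands above, was at 682, 747 and 769.7 CPM in mock nilotinib, 23.6, 22.2 and 26.2 in hemin DMSO and 223, 301 and 329.6 in mock DMSO. The treatments differed (log2 difference 4.93, SE 0.19, edgeR adjusted p = 2.01e-11), with -3.57 under hemin and 1.37 under nilotinib against the shared solvent libraries. GFI1B, a repressor needed for red cell and platelet formation, was at 374, 479.8 and 509.5 CPM, 9.01, 12 and 17.2 CPM and 129, 145 and 149 CPM in mock nilotinib, hemin DMSO and mock DMSO (log2 difference 5.15, SE 0.23, edgeR adjusted p = 5.00e-11). TAL1 and its partner LMO2, which sit with GATA1 in 1 complex, were higher, by 3.25 and 3.41 (edgeR adjusted p = 3.52e-10 and 4.79e-10). NFE2, an activator of globin enhancers, differed by 3.88 and the GATA1 cofactor ZFPM1 (FOG1) by 2.62.

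GATA1 itself differed by less, at 356, 373 and 399.8 CPM in mock nilotinib, 130.2, 186 and 158 in hemin DMSO and 268, 296 and 325 in mock DMSO (log2 difference 1.25, SE 0.14, edgeR adjusted p = 1.01e-06). Against mock DMSO its mRNA was lower under hemin (log2 difference -0.91, SE 0.14, edgeR adjusted p = 5.52e-05) and did not pass the test under nilotinib (log2 difference 0.34, SE 0.14, edgeR adjusted p = 0.0572). GATA2, which GATA1 replaces as cells mature, was the 1 factor lower in mock nilotinib, at 70.5, 53.9 and 62.1 against 132, 205 and 184 CPM (log2 difference -1.48, SE 0.17, edgeR adjusted p = 1.66e-06). LYL1 and FOXO3 were higher by 1.90 and 1.17. MYB, which holds progenitors in division, was at 302, 309 and 311 CPM in mock DMSO but at 38.2, 36.9 and 33.9 in mock nilotinib and 29.9, 57.2 and 48.9 in hemin DMSO. The treatments were not called apart (log2 difference -0.32, SE 0.18, edgeR adjusted p = 0.121), and the difference became -0.55 (edgeR adjusted p = 0.00213) when hemin DMSO replicate 1 was left out.

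The red cell membrane had 23 of 24 genes higher in mock nilotinib and 1 lower (median 3.17). Band 3 (SLC4A1, chr17:44248385-44268141), the anion exchanger that anchors the skeleton, was at 3677, 4844 and 5396 CPM in mock nilotinib, 6.80, 3.83 and 6.29 in hemin DMSO and 7.81, 27.4 and 45.8 in mock DMSO (log2 difference 9.68, SE 0.57, edgeR adjusted p = 7.68e-10). Of the skeleton, SPTB, whose promoter window stands above, was at 687, 759.8 and 766 CPM against 40.9, 44.8 and 42.3 (log2 difference 4.11, SE 0.18, edgeR adjusted p = 4.64e-11) and the ankyrin ANK1, which ties spectrin to band 3, was higher by 2.996. EPB42, which binds band 3 and ankyrin, was higher by 4.62. TPM1, a tropomyosin of many tissues, was the lower one (log2 difference -0.96, SE 0.14, edgeR adjusted p = 1.65e-05).

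Blood group carriers followed. KEL was at 737, 722 and 792 CPM in mock nilotinib and 29.4, 32.5 and 36.5 in hemin DMSO (log2 difference 4.52, SE 0.18, edgeR adjusted p = 2.73e-11), and the water channel AQP1 at 214, 223 and 168 against 5.42, 4.24 and 4.79 CPM (log2 difference 5.39, SE 0.28, edgeR adjusted p = 1.96e-10). RHD and RHCE, related genes with 1.41 and 1.8% shared words, differed by 3.79 and 3.403, and their partner RHAG by less (log2 difference 0.67, SE 0.17, edgeR adjusted p = 0.00271). The glycophorins GYPB and GYPC differed by 3.58 and 1.53. ACKR1, the Duffy antigen carrier, was rare, at 3.04, 3.41 and 3.43 against 0.153, 0.160 and 0 CPM.

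Genes of late erythroid maturation were higher in mock nilotinib for 12 of 15 tested, lower for 1 and not called for 2 (median 2.17). Carbonic anhydrase CA1, an abundant red cell enzyme, was at 631, 632 and 574 CPM in mock nilotinib, 2.05, 2.65 and 3.68 in hemin DMSO and 3.53, 10.3 and 15.2 in mock DMSO (log2 difference 7.76, SE 0.47, edgeR adjusted p = 9.41e-10). HEMGN, an erythroid nuclear factor, was at 607, 689.8 and 624 against 9.16, 19.1 and 18.7 CPM (log2 difference 5.35, SE 0.34, edgeR adjusted p = 1.68e-09), with mock DMSO between them at 114, 154 and 216 CPM. FAXDC2 and TRIM58, a ubiquitin ligase of late erythroblasts, differed by 4.21 and 2.88. BPGM, which makes the regulator of oxygen release, and catalase CAT differed by 2.46 and 2.13. UBE2O, the ubiquitin enzyme that clears ribosomes from reticulocytes, was the exception, at 322, 331 and 326 CPM in hemin DMSO and 115, 114 and 121 in mock nilotinib (log2 difference -1.49, SE 0.13, edgeR adjusted p = 6.21e-08).

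The list of erythropoietin and KIT signalling was mixed, with 5 of 11 genes higher in mock nilotinib, 4 lower and 2 not called (median 0.47). EPOR, the receptor, was at 176, 159 and 160.4 CPM in mock nilotinib and 9.01, 6.35 and 7.66 in hemin DMSO (log2 difference 4.43, SE 0.21, edgeR adjusted p = 8.90e-11), the adaptor GAB1 at 122, 123 and 121 against 8.06, 9.25 and 9.54 (log2 difference 3.77, SE 0.16, edgeR adjusted p = 3.79e-11) and the kinase JAK2 at 114, 131 and 136 against 12.5, 18.3 and 19.5 (log2 difference 2.92, SE 0.16, edgeR adjusted p = 3.39e-10). STAT5A was higher (log2 difference 1.34, SE 0.21, edgeR adjusted p = 3.94e-05) although each treatment was below mock DMSO (-1.18 and -2.51). KIT, the stem cell factor receptor, was at 2.56, 4.32 and 3.78 against 7.42, 15.6 and 13.7 CPM (log2 difference -1.79, SE 0.27, edgeR adjusted p = 1.93e-05), and the adaptor GAB2 and the kinase LYN were lower, with log2 differences of -1.70 and -1.97 (edgeR adjusted p = 8.06e-07 and 3.57e-09).

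**Figure D3:**
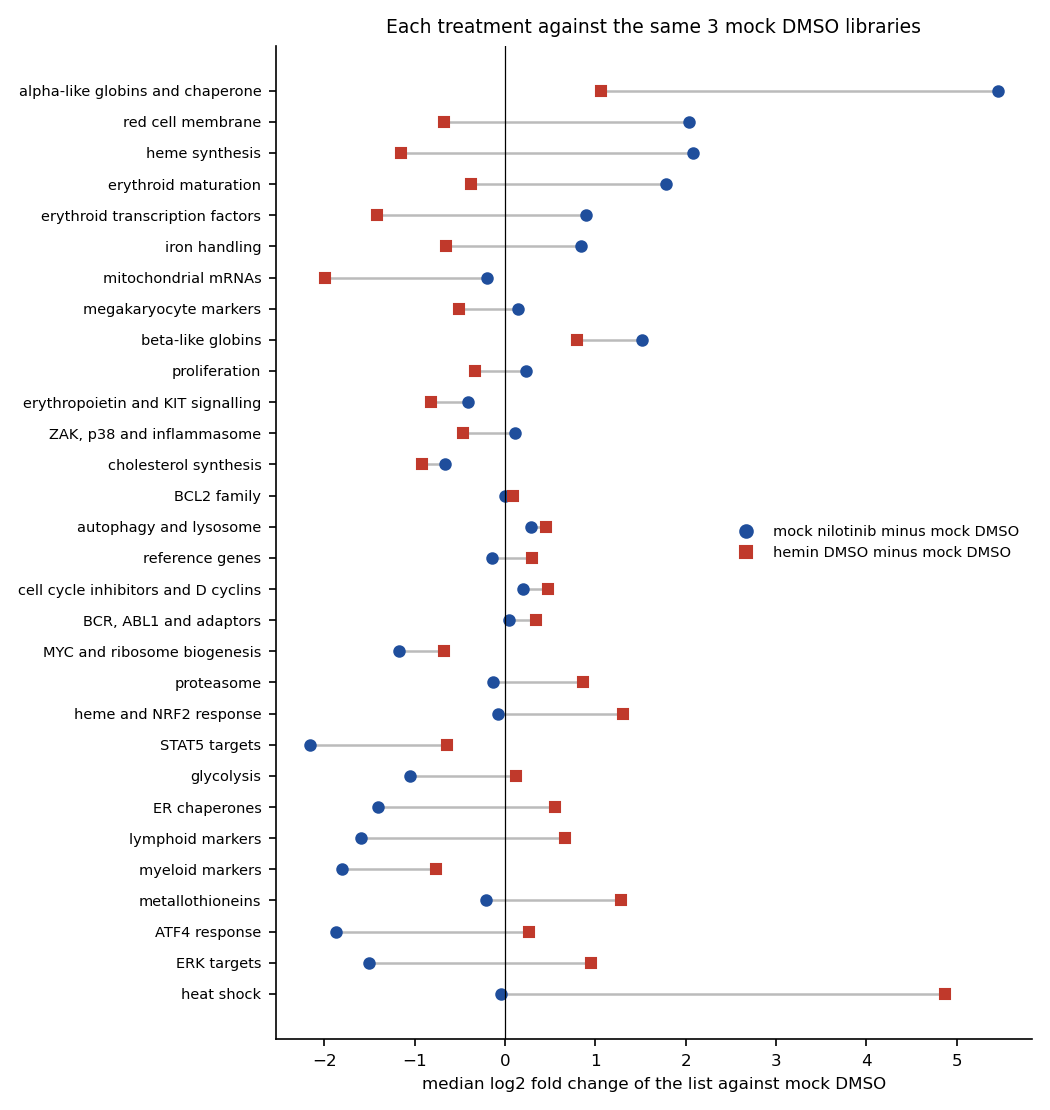
For each gene list the blue circle gives the median log2 difference of mock nilotinib, and the red square that of hemin DMSO, against the same 3 mock DMSO libraries. Heme synthesis and the red cell membrane lie at 2.08 and 2.04 under nilotinib and at -1.15 and -0.67 under hemin, while heat shock lies at -0.05 under nilotinib and 4.87 under hemin; the shared controls tie the positions of both symbols.

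Set side by side against the shared solvent libraries, 4304 genes rose and 4547 fell under nilotinib, and 5360 rose and 5796 fell under hemin. Without composition scaling the hemin split became 3881 and 7578. The erythroid transcription factors had 9 members above and 2 below mock DMSO under nilotinib, but 2 above and 10 below under hemin. The red cell membrane had 22 above and 1 below under nilotinib, against 3 above and 16 below under hemin. Of the 6 genes of the α-like globin list, all were above mock DMSO under nilotinib, and 3 were above and none below under hemin. The plot of medians against mock DMSO gives these positions for all 30 lists.

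MYC and cell cycle genes differed in a mixed way. MYC was at 62.8, 60.1 and 54.5 CPM in mock nilotinib, 213, 218 and 242 in hemin DMSO and 233, 279 and 292 in mock DMSO (log2 difference -1.92, SE 0.13, edgeR adjusted p = 3.51e-09). Of 24 genes of MYC and ribosome biogenesis, 11 were lower in mock nilotinib, 3 higher and 10 not called (median -0.63). MXD1, which competes with MYC for MAX, was at 334, 360 and 381 CPM in hemin DMSO and 38.7, 48.2 and 51.5 in mock nilotinib (log2 difference -2.96, SE 0.25, edgeR adjusted p = 4.05e-08). The nucleolar proteins NOP58 and NPM1 were lower, with log2 differences of -2.40 and -0.93 (edgeR adjusted p = 2.65e-08 and 8.96e-05), and UBTF, which recruits RNA polymerase I, was higher, at 444, 457 and 424 against 57.8, 55.9 and 58.6 CPM (log2 difference 2.94, SE 0.14, edgeR adjusted p = 1.09e-10).

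Proliferation genes were higher in mock nilotinib for 14 of 24, lower for 5 and not called for 5 (median 0.62). Against mock DMSO, 5 were higher, 3 lower and 16 not called under nilotinib. Under hemin 3 were higher, 12 lower and 9 not called against the same libraries. The helicase subunit MCM4 was at 697, 646 and 609 CPM in mock nilotinib and 112, 154 and 111 in hemin DMSO (log2 difference 2.37, SE 0.22, edgeR adjusted p = 1.05e-07). PCNA, RRM2 and E2F1, which serve DNA replication, were higher by 1.96, 1.97 and 1.78, and MKI67 (log2 difference 0.95, SE 0.16, edgeR adjusted p = 6.11e-05). CDC6, which loads the helicase, was lower (log2 difference -1.32, SE 0.17, edgeR adjusted p = 5.69e-06). The inhibitor CDKN1A (p21) was at 333, 365 and 371 CPM in hemin DMSO, 17.1, 11.7 and 12.7 in mock nilotinib and 32.8, 27.6 and 22.8 in mock DMSO (log2 difference -4.69, SE 0.21, edgeR adjusted p = 4.93e-11). CCND2, a cyclin downstream of BCR-ABL1, was lower in mock nilotinib (log2 difference -2.57, SE 0.31, edgeR adjusted p = 2.14e-06), and the antiproliferative BTG2 and the inhibitor CDKN2C were higher (2.76 and 1.19, edgeR adjusted p = 5.44e-10 and 9.44e-07).

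Of 12 BCL2 family genes 5 were lower in mock nilotinib, 4 higher and 3 not called. PMAIP1 (NOXA) was at 144, 132 and 112 CPM in hemin DMSO and 15.9, 11.2 and 13.1 in mock nilotinib (log2 difference -3.27, SE 0.32, edgeR adjusted p = 1.75e-07). The death-promoting BMF and BCL2L11 (BIM), which ERK signalling restrains, were higher in mock nilotinib, BMF at 44.2, 71.3 and 84.4 against 11.8, 9.48 and 12.6 CPM (log2 difference 2.56, SE 0.30, edgeR adjusted p = 1.55e-06) and BCL2L11 at 57.3, 63.0 and 59.1 against 22.1, 20.7 and 23.1 CPM (log2 difference 1.44, SE 0.16, edgeR adjusted p = 5.94e-07). The survival gene MCL1 was lower (log2 difference -0.97, SE 0.14, edgeR adjusted p = 1.41e-05). Cholesterol synthesis had 10 of 20 genes higher in mock nilotinib, 2 lower and 8 not called (median 0.34), with INSIG1, which restrains sterol synthesis, at 235, 299 and 427 against 116, 138 and 131 CPM. In mock DMSO it was at 280, 329 and 335 CPM, above hemin DMSO.

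Mitochondrially encoded mRNAs were higher in mock nilotinib for 12 of 13 and not called for 1 (median 1.29). MT-ATP6, a subunit of ATP synthase, was at 4492, 3612 and 3088 CPM in mock nilotinib, 778, 421 and 837 in hemin DMSO and 3432, 4409 and 3889 in mock DMSO (log2 difference 2.46, SE 0.28, edgeR adjusted p = 9.35e-07). MT-CO1, of cytochrome oxidase, was at 15760, 13370 and 11400 against 4776, 1924 and 4025 CPM (log2 difference 1.92, SE 0.30, edgeR adjusted p = 3.34e-05), with hemin DMSO replicate 2 the lowest. MT-ND6, the one on the light strand, differed (log2 difference 2.39, SE 0.33, edgeR adjusted p = 8.71e-06). MT-ND2 was not called (log2 difference -0.16, SE 0.26, edgeR adjusted p = 0.597), being at 2378, 1850 and 1637 against 1829, 1496 and 3241 CPM. Under nilotinib 11 of the 13 were not called against mock DMSO, and under hemin 12 were below it.

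The study asked about the kinase ZAK, p38 and the NLRP1 inflammasome, and of the 16 genes tested in that list 6 were higher in mock nilotinib and 10 were not called (median 0.46). The values here are mRNA levels, whereas the study followed this pathway by immunoblots, including phosphorylated p38, and by CASP1 activity. ZAK (MAP3K20), the kinase that senses stalled ribosomes, was at 98.0, 90.6 and 79.6 CPM in mock nilotinib and 49.7, 50.3 and 49.5 in hemin DMSO (log2 difference 0.84, SE 0.12, edgeR adjusted p = 1.60e-05). Its downstream kinase p38α (MAPK14) was at 152, 177 and 173 against 38.4, 28.9 and 32.3 CPM (log2 difference 2.33, SE 0.13, edgeR adjusted p = 4.96e-10), and the activating kinase MAP2K3 was higher (log2 difference 1.09, SE 0.22, edgeR adjusted p = 3.63e-04). NLRP1, the sensor, was at 206, 205 and 260.5 against 284, 168 and 236 CPM and was not called, with a difference near 0 whose sign turned under several settings (log2 difference -0.035, SE 0.25, edgeR adjusted p = 0.91). CARD8 and the pore-former GSDMD were higher, with log2 differences of 1.45 and 1.501 (edgeR adjusted p = 1.57e-07 and 1.83e-06). CASP1, the protease that the inflammasome activates, did not pass the filter and had 0, 0 and 1 counts in mock nilotinib and 0, 1 and 1 in hemin DMSO.

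The largest rises among called protein-coding genes with a mean of at least 500 counts over the 6 libraries were not all erythroid by name. ESPN (chr1:6424776-6461367), an actin-bundling protein, was at 1447, 1961 and 1996 CPM in mock nilotinib, 2.21, 1.47 and 2.56 in hemin DMSO and 13.3, 31.1 and 36.2 in mock DMSO (log2 difference 9.75, SE 0.40, edgeR adjusted p = 2.73e-11). PPP2R2C, a regulatory subunit of protein phosphatase 2A, was at 39.7, 51.4 and 40.6 CPM in mock nilotinib and had 3, 4 and 1 counts in hemin DMSO (log2 difference 9.09, SE 0.33, edgeR adjusted p = 1.70e-11). The chloride channel BEST3 was at 35.9, 45.3 and 52.3 against 0.0919, 0.0957 and 0.152 CPM and the relaxin peptide RLN3 at 28, 41.5 and 31.2 against 0.153, 0.160 and 0.0761 CPM, differences of 8.55 and 8.02. TNS1, which links actin to adhesion sites, was at 382, 453 and 421 against 2.51, 2.17 and 4.18 CPM (log2 difference 7.13, SE 0.33, edgeR adjusted p = 6.53e-11). The scavenger receptor SCARF1, the acetyl-CoA synthetase ACSS1, the inhibin subunit INHA and extracellular superoxide dismutase SOD3 were higher by 6.15, 6.10, 5.93 and 6.57. In mock DMSO, SCARF1 was at 15.0, 16.0 and 15.5 CPM, well above hemin DMSO at 0.368, 0.319 and 0.659, while PPP2R2C was as rare in mock DMSO (3, 2 and 2 counts) as under hemin. On the other side, NHLH1, a neural transcription factor, was at 33.8, 37.5 and 35.7 CPM in hemin DMSO and 0.127, 0.233 and 0.260 in mock nilotinib (log2 difference -7.43, SE 0.53, edgeR adjusted p = 5.84e-09).

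Some genes were detected under 1 treatment only, defined as at most 3 counts in every library of the other and at least 30 in every library of the first. Hemin DMSO had 134 such genes, 91 of them protein coding, and mock nilotinib 49, of which 15 were protein coding. Of the 134, 45 also had at most 3 counts in every mock DMSO library, and 12 had at least 30 there. Of the 49, these numbers were 8 and 4. Leaving out a library can only keep or raise the 134 and the 49, since fewer libraries must meet the limits. Without hemin DMSO replicate 1 the 134 became 218, and without replicate 3 the 49 became 82. PNLDC1 (chr6:159800249-159820704), a piRNA-trimming exonuclease, had 1531, 2626 and 2756 counts in hemin DMSO, 0, 0 and 2 in mock nilotinib and 27, 11 and 6 in mock DMSO, a ratio of 3622 between the treatments (95% counting interval 1002 to 29910). ITGA1, a collagen-binding integrin subunit, had 1300, 1072 and 1325 counts against 1, 0 and 0, and GCM1, a placental transcription factor, 328, 540 and 603 against 0, 0 and 1. MRC1, the macrophage mannose receptor, had 219, 402 and 461 against 1, 1 and 2 counts.

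On the nilotinib side the 5 with the most counts were 4 genes known only by clone names and ART4, which carries the Dombrock blood group. ART4 had 245, 267 and 344 counts in mock nilotinib, 1, 0 and 0 in hemin DMSO and 2, 1 and 8 in mock DMSO, a ratio of 817 (95% counting interval 146 to 32300). AL031848.1 had 821, 643 and 885 counts in mock nilotinib and 0, 0 and 1 in hemin DMSO. AP003555.2 had 372, 400 and 350 counts and 0 in every hemin DMSO library, so it was at least 118-fold higher (3 counts per library as the floor). AP003555.3 had 383, 315 and 344 against 0, 0 and 2 counts, and AC003043.2 had 207, 279 and 360 against 1, 0 and 1. Several noncoding classes leaned towards mock nilotinib, against 32.5% of all genes higher there and 33.4% higher in hemin DMSO. Among 1752 antisense genes 653 were higher in mock nilotinib and 317 in hemin DMSO. Among 1564 lincRNAs the numbers were 592 and 365, and among 258 sense intronic RNAs 108 and 31. The 1155 processed pseudogenes were split evenly (295 and 287). Among 14208 protein-coding genes 4338 were higher in mock nilotinib and 5562 in hemin DMSO. The use of strand in counting is not given in the sources used here, so antisense and sense intronic counts are uncertain.

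Markers of other blood lineages were low or mixed. Of 10 megakaryocyte markers tested of 18 listed, 5 were higher in mock nilotinib, 3 lower and 2 not called, and their summed level was 601.1 to 651.8 CPM in mock nilotinib and 193.9 to 229.4 in hemin DMSO. TUBB1, the tubulin of platelets, was at 191, 207 and 205 against 4.04, 4.05 and 5.40 CPM (log2 difference 5.48, SE 0.35, edgeR adjusted p = 1.80e-09), with 34.0% of its exon length overlapping a gene on the other strand. GP6 and ITGB3, platelet adhesion receptors, were higher by 2.40 and 2.92. Of ITGB3, 51.6% of the exon length overlaps another gene on the same strand, and 49.6% of its 150-base words are found in another gene. ITGA2B, the partner of ITGB3, was lower, at 11.8, 16.5 and 19.1 against 30.8, 69.6 and 35.03 CPM (log2 difference -1.51, SE 0.30, edgeR adjusted p = 3.48e-04), as was the matrix protein THBS1 (-3.36). Of 10 myeloid markers tested of 16 listed, 6 were lower in mock nilotinib, 1 (AZU1, 1.60) was higher and 3 were not called, with summed levels of 38.2 to 44.8 CPM in mock nilotinib, 110.5 to 138.4 in hemin DMSO and 163.8 to 185.4 in mock DMSO. SPI1 (PU.1), the myeloid factor that opposes GATA1, was at 17.2, 14.5 and 14.1 CPM in mock nilotinib, 54.4, 64.5 and 60.4 in hemin DMSO and 73.4, 78.7 and 72.7 in mock DMSO (log2 difference -1.97, SE 0.14, edgeR adjusted p = 5.38e-09). CSF3R, CD33 and LYZ were lower with log2 differences of -3.78, -2.18 and -2.87 (edgeR adjusted p = 1.40e-08, 1.23e-07 and 9.08e-08), and CD14 was at 0.380, 0.0583 and 0.202 against 5.21, 11.3 and 11.7 CPM. Of the lymphoid markers 6 of 12 passed the filter and 3 were lower in mock nilotinib, among them CD3D (-5.71), with summed levels of 51.3 to 61.9 CPM in mock nilotinib and 64.3 to 108.1 in hemin DMSO. The part of these lineages in the erythroid differences was not tested.

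Genes often used as references differed between the treatments too. Of 12 listed, 7 were lower in mock nilotinib, 3 higher and 2 not called, against 65.8% of all genes called. GAPDH was at 765, 1211 and 1229 CPM in mock nilotinib and 1759, 2504 and 1540 in hemin DMSO (log2 difference -0.86, SE 0.21, edgeR adjusted p = 0.0016). HPRT1 and TBP were lower, with log2 differences of -1.11 and -0.91 (edgeR adjusted p = 6.66e-06 and 1.52e-05), and SDHA and GUSB were higher, with log2 differences of 0.75 and 0.66 (edgeR adjusted p = 1.41e-04 and 0.00163). EEF1A1, an elongation factor and 1 of the 6 genes with the highest mean count over the 6 libraries, was at 11550, 13840 and 14810 CPM in mock nilotinib and 14380, 18650 and 14090 in hemin DMSO and was not called (log2 difference -0.23, SE 0.18, edgeR adjusted p = 0.283).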

How the data were processed

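RNA was measured in 12 K562 libraries, 3 in each of 4 groups, by 150-base paired-end sequencing of total RNA. The authors deposited raw read counts and FPKM values for 58735 genes. The FPKM are the counts per kilobase of gene, divided by the median-of-ratios size factor of each library, so they are not independent of the counts. The submitters' processing notes name GRCh38.p12 and DESeq2, and coordinates follow GENCODE 29. The aligner, the counter and the use of strand are not given in the sources used here. The libraries held 33457078 to 50506990 counts in the 3 groups described, and a gene with 3 counts in a library was at 0.0540 to 0.0957 CPM. Intervals on counts cover counting error only.

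Genes were kept by filterByExpr with a minimum count of 10 and a minimum total of 15. TMM factors and a quasi-likelihood fit of 4 group means over all 12 libraries came from edgeR 4.0.16 in R 4.3.3, with Benjamini-Hochberg adjustment over the 20821 genes tested (adjusted p under 0.05). The biological coefficient of variation was 0.198. Alternatives were DESeq2 1.42.0, other scalings and filters, limma-trend 3.58.1 on the deposited FPKM after log2(value + 1) or log2(value + 0.1), the 6 libraries alone, a replicate block and leaving out each library. On simulated counts for these libraries, edgeR recovered 59% of 100 genes changed 2-fold and 89% of 100 changed 4-fold. It made 2 false calls among the 20149 genes it tested. How the calls and the scaling fare with as many genes changed as between the treatments (65.8% called) was not tested.

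Besides the 30 gene lists, the genes named were the 12 largest rises and falls among called protein-coding genes averaging 500 counts or more with groups that did not overlap, the members of each list with the largest differences or not called, the 6 most counted genes, the 5 genes with the most counts detected under 1 treatment only, and 8 genes of the drug pathways. Some further list members are named for their known role after their values were seen. The comparison, the members and the lists were chosen with earlier results of these data known. Shared sequence was counted in 150-base words of the exons. p-values measure the spread between libraries of 1 cell line. Values of some genes are not reported here.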

Additional observations from a re-analysis of the deposited data

How the results depend on the processing

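In the direct comparison the number of genes called ranged from 10022 to 15557 over the settings tried other than a 2-fold minimum, which left fewer. These ends came from different filters. The first was of 14845 genes tested (at least 10 counts in every library) and the second of 40578 (at least 1 count). The main fit called 13704 of 20821. The number was 13775 with DESeq2 (13487 of them also called by edgeR) and 12923 to 13473 when 1 library was left out. For mock nilotinib against mock DMSO, genes called with a 2-fold minimum numbered 4872 of 20821 tested (2511 higher, 2361 lower). For hemin DMSO against mock DMSO, genes called with a 2-fold minimum numbered 6474 of 20821 (3284 higher, 3190 lower). Same-numbered libraries of the compared groups deviated together weakly (correlations 0.0692, 0.106 and 0.078). Each correlated best with its own number, and different-numbered libraries gave -0.0983 to 0.0125. Whether the numbers mark pairs was not tested, and the main fit did not take them as pairs. A replicate block called 13965 genes against 13704 in the main fit. Against mock DMSO it called 9294 against 8851 for nilotinib and 11611 against 11156 for hemin. Leaving out 1 library gave 138 to 218 genes detected only under hemin and 53 to 82 only under nilotinib. By the definition these numbers could not fall below the 134 and 49 of all libraries. The median log2 fold change of the list metallothioneins turned to 0.11 with at least 10 counts in every library and to 0.14 with the 6 libraries alone, where fewer of its genes were tested, and the median log2 fold change of the list BCL2 family to 0.077 with at least 10 counts. The log2 fold change of MT-ND2 turned to 0.033 with library totals only and ranged from -0.37 to 0.23 on leaving out 1 library (the highest without hemin DMSO replicate 3), and the log2 fold change of NLRP1 to 0.17 with library totals only, 0.0093 with all genes of at least 1 count and ranged from -0.21 to 0.15 on leaving out 1 library; the cause was not tested. HBB passed the test with all genes of at least 1 count, and low-count genes are limited by depth.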

Other observations

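The libraries that received both agents enter no comparison above, and their values are given as shares of all counted reads, replicate 1 first. Heat shock genes took 0.71, 1.392 and 2.457% in hemin nilotinib, between the ranges of mock nilotinib (0.3526 to 0.4916%) and hemin DMSO (9.102 to 9.906%). The α-like globins and their chaperone took 1.705, 1.128 and 0.9343%, above the 0.7184 to 0.8934% of mock nilotinib and the 0.04087 to 0.05401% of hemin DMSO. Red cell membrane genes took 1.599, 1.657 and 1.605%. ERK targets took 0.03335, 0.04121 and 0.0472%. The 3 libraries spread widely in heat shock, and no test was made of these shares.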
